A study of Mus musculus with 8 samples.

Results

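Integrins and laminins hold heart cells to the basement membrane around them. The 36 genes described here are 26 integrin chain genes and 10 laminin chain genes, out of 22180 genes measured on 8 expression arrays of mouse heart. They were found by gene symbol alone: Itga, Itgb, Lama, Lamb or Lamc followed by a digit, plus Itgad, Itgae, Itgal, Itgam, Itgav and Itgax. Genes of integrin-binding proteins, such as Itgb1bp1 and Itgb1bp2, were left out. Itgb2l, which encodes a relative of the leukocyte beta chain Itgb2, matched the symbols and was kept.

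The hearts came from mice heterozygous for Pcyt2 (Pcyt2+/-), the gene of an enzyme of phosphatidylethanolamine synthesis, and are labelled myocardium. There were 4 males and 4 females aged 8 months, labelled biological replicates, and the hearts were taken 3 to 4 hours after lights on and snap frozen. Every animal had the same genotype, and the labels name no strain and no drug or diet. Hearts of wild-type mice were not analysed here, so sex was the only contrast.

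An integrin is a pair of 1 alpha and 1 beta chain that spans the cell membrane, binds matrix or another cell outside and couples to the actin skeleton through adaptor proteins inside. A laminin is a cross-shaped trimer of an alpha, a beta and a gamma chain, and laminin networks, tied to collagen IV by nidogen and perlecan, make up the basement membrane that wraps each cardiomyocyte and capillary. Adult cardiomyocytes attach mainly through the Itga7 and Itgb1 pair to laminin built on Lama2, while Lama4 and Lama5 are the laminin alpha chains of vessels. Itgb2 and its partners Itgal, Itgam and Itgax belong to white blood cells.

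All values are on a log2 scale relative to the probe set's own median over the 8 arrays, so they give no absolute level and no ranking of one gene above another. The tissue label could not be checked against the level of defining markers for the same reason. Differences are females minus males with the standard error (SE) and 95% interval of a limma fit over all genes, and adjusted p-values are over all 22180 genes. The number of arrays limits the precision. In these bulk samples, fewer cells of a type and less RNA per cell cannot be told apart.

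Of the series as a whole, Xist was higher in each female than in any male, and the Y-linked genes Uty, Kdm5d and Eif2s3y were higher in each male than in any female. Some hearts stood apart in genes of other muscle and of liver. Fast skeletal Myh4 was highest in male 2 (2.23), male 1 (1.57) and female 1 (1.03), and liver-type Alb was highest in female 2 (2.69) and female 1 (1.76). The mean of 6 atrial muscle genes ran from -1.02 to 0.25 in males and from -1.23 to 0.52 in females. Cardiomyocyte markers, by contrast, varied little: the mean of all 7 lay between -0.03 and 0.01 in males and between -0.06 and 0.03 in females. Pcyt2 itself had a difference of -0.05 ± 0.10 (SE, n = 4 each).

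None of the 36 integrin and laminin genes differed between the sexes at a limma adjusted p under 0.05. The count was 0, against 0.0316% of all genes, and the smallest adjusted p of a member was 0.619. At an unadjusted p under 0.05 there were 3 members (8.33%), against 6.96% of all genes. The values of the sexes did not overlap in 2 members (5.56%), against 3.74% of all genes. Both shares lie near those of all genes.

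The intervals were narrow. In 36 of 36 members the 95% interval of the difference lay inside 1.5-fold in either direction. The widest bound was 1.27-fold, in Itga6. Each interval holds for its own gene and not for the 36 jointly. Arrays can understate the change of dim probes, and brightness is not known here, so these are bounds on the measured difference. The mean was higher in males for 21 members (58.3%), against 50.4% of all genes. The median difference over members was -0.0057, against -0.00058 over all genes.

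**Figure D1:**
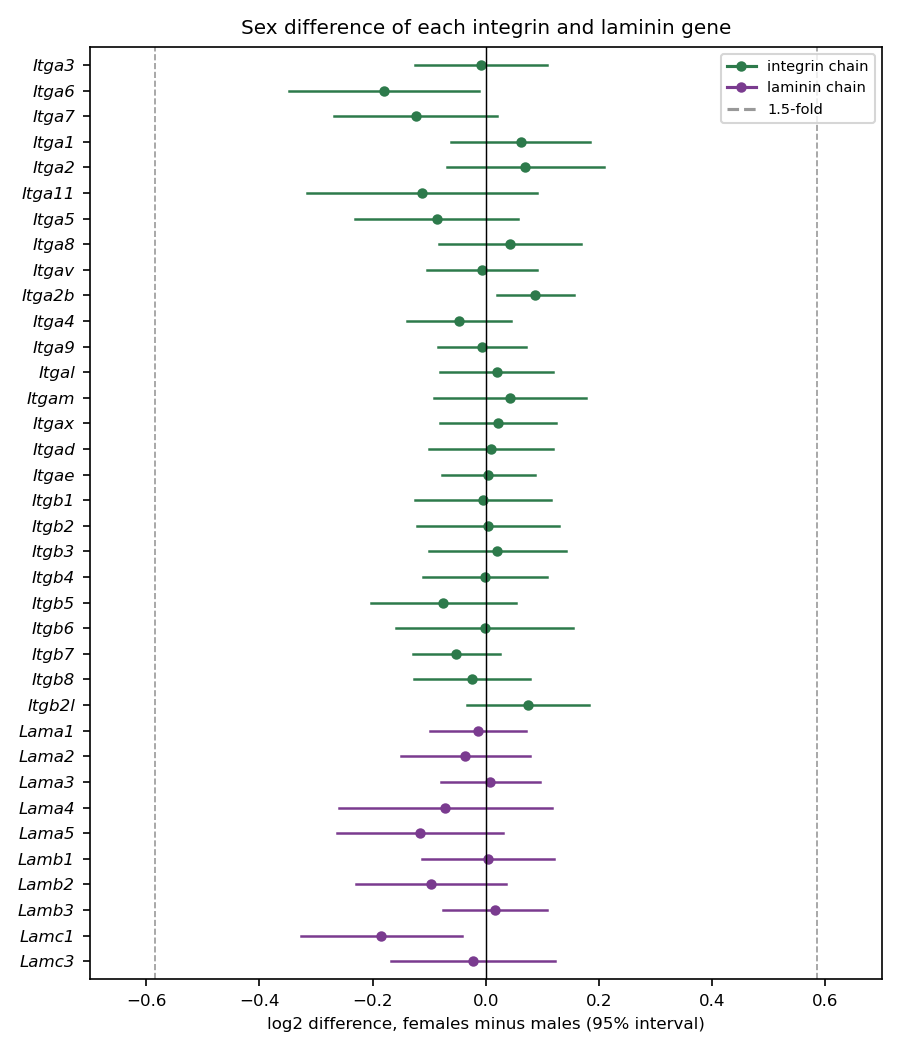
Difference of each of the 36 genes as females minus males on the log2 scale (x axis), with points for the fitted difference, bars for its 95% interval and dashed lines at 1.5-fold. All 36 intervals lie between the dashed lines, and those of Itga6, Lamc1 and Itga2b lie clear of 0.

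The members varied from heart to heart about as much as all genes did. The SD of a gene over the 8 arrays had a median of 0.0752 among members and 0.0754 among all genes. It was lowest in Itga9, an alpha chain of muscle and lymphatic vessels, at 0.0365, and in Itgae, the alpha chain of lymphocytes within epithelia, at 0.0407. It was highest in Itga11, the fibroblast collagen receptor, at 0.151, in Itga6 at 0.148 and in Lamc1 at 0.135.

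**Figure D2:**
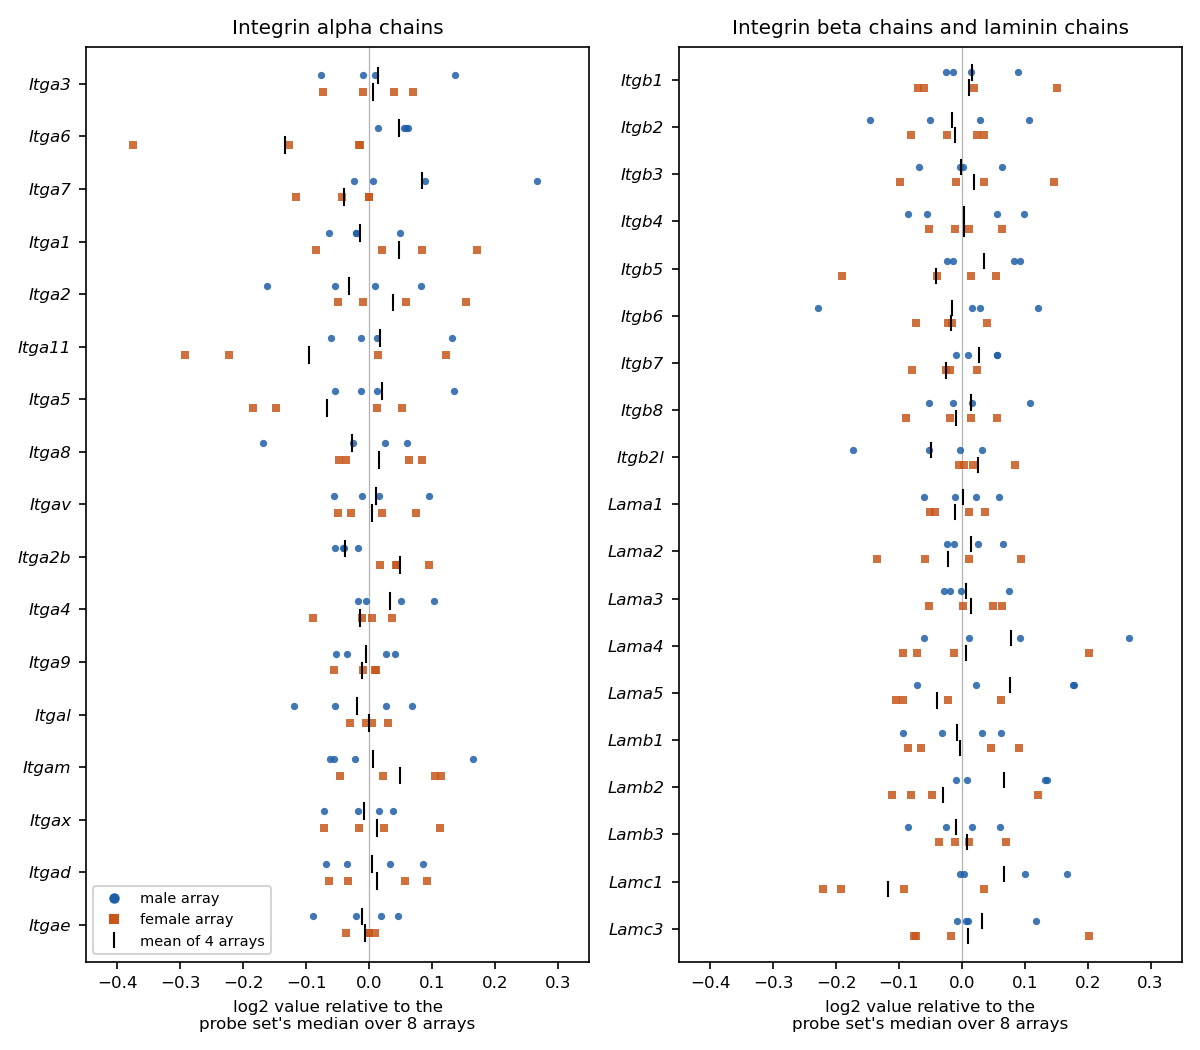
Value of each member on every array (x axis, log2 relative to the probe set's median), with circles for the 4 males, squares for the 4 females and bars for the mean of each sex. The sexes overlap in 34 of the 36 genes, and Itga2b and Itga6 are the 2 that do not.

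The alpha chains grouped here as laminin receptors were Itga3, Itga6 and Itga7. All 3 had higher means in males, as did 50.4% of all genes. Itga6, found in endothelium and other cells on basement membranes, stood at 0.01, 0.06, 0.06 and 0.06 in males 1 to 4 and at -0.01, -0.02, -0.13 and -0.37 in females 1 to 4. Every male value lay above every female value, but females 1 and 2 were close to the males and female 4 far below. The difference was -0.18 ± 0.07 (SE, 95% interval -0.35 to -0.01, adjusted p = 0.687). Without female 4 it was -0.10, and -0.30 without females 1 and 2, the hearts highest in Alb.

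Itga7, the laminin receptor chain of muscle cells, stood at 0.01, -0.02, 0.09 and 0.27 in the males and at -0.12, 0.00, 0.00 and -0.04 in the females. Male 4 lay above all the other hearts, and the sexes overlapped. The difference was -0.12 ± 0.06 (SE, adjusted p = 0.744), and without male 4 it was -0.06. Without the 3 arrays with the highest Myh4 it was -0.19. Itga3 had a difference of -0.01 ± 0.05 (SE).

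The mean of 9 smooth muscle and pericyte markers was highest in males 4 and 3, the hearts in which Itga7 was highest. Single markers differed. Acta2 and Pdgfrb were highest in male 4, and Myh11, Tagln and Rgs5 in male 3. Cnn1 and Cspg4 were highest in female 2, and Kcnj8 and Abcc9 in female 1. Rgs5 was lowest in male 4. Of the 9, 7 had higher means in males, and the mean of all 9 ran from -0.10 to 0.13 in males and from -0.06 to 0.03 in females. The smooth muscle myosin gene Myh11 had a difference of -0.19 ± 0.06 (SE) with no overlap of the sexes. It was the only 1 of the 9 without overlap, against 3.74% of all genes. Of 10 endothelial markers 5 had higher means in males. Kdr, Cdh5 and Egfl7 had a limma unadjusted p under 0.05, with differences of -0.19, -0.11 and -0.12. With females higher, 0 markers had such a p. Over all genes 3.32% had such a p with males higher. The mean of the 10 ran from -0.01 to 0.04 in males and from -0.15 to 0.03 in females. The part of either in the values of Itga6 and Itga7 was not tested.

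Among the collagen-binding alpha chains, Itga1 and Itga2 had higher means in females and Itga11 in males. Itga1, a collagen receptor of smooth muscle and capillary cells, stood at -0.02, 0.05, -0.02 and -0.06 in the males and at 0.02, 0.17, 0.08 and -0.08 in the females. The sexes overlapped, with female 2 highest and female 4 lowest. Its difference was 0.06 ± 0.05 (SE), or 0.02 without female 2 and 0.11 without female 4. Itga2, a platelet and epithelial collagen receptor chain, had a difference of 0.07 ± 0.06 (SE). Itga11 had one of -0.11 ± 0.09 (SE), the largest standard error of the 36 genes.

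Chains that recognise the RGD motif of fibronectin and related ligands include Itga5, Itga8, Itgav and Itga2b. Itga2b, the platelet and megakaryocyte chain that pairs with Itgb3, had the smallest p of all members. It stood at -0.04, -0.02, -0.05 and -0.04 in the males and at 0.04, 0.09, 0.04 and 0.02 in the females. All 4 females lay above all 4 males, by a small margin. The difference was 0.09 ± 0.03 (SE, 95% interval 0.02 to 0.16, adjusted p = 0.619), a 1.06-fold difference. It stayed between 0.07 and 0.10 in 18 alternative settings. Some of these could not move it: single probe sets, trend and robust settings, the replicate block and protein-coding genes only.

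Platelet and megakaryocyte markers were set beside Itga2b. Of 5 measured (Gp1ba and Gp1bb were not used here), 2 had higher means in females. The mean of the 5 ran from -0.04 to 0.10 in males and from -0.18 to 0.12 in females. The standard errors of their differences ran from 0.04 in Treml1 to 0.16 in Ppbp. Itgb3, the partner chain, had a difference of 0.02 ± 0.05 (SE). The part of platelet RNA in the values of Itga2b was not tested.

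Itga5, the main fibronectin receptor chain, stood at -0.05, 0.14, 0.01 and -0.01 in the males and at -0.15, 0.05, 0.01 and -0.18 in the females. Females 1 and 4 were low and the other hearts overlapped. Its difference of -0.09 ± 0.06 (SE) was -0.04 without the 3 arrays with the highest Myh4, and -0.05 without either male 2 or female 4. Itgav, which pairs with several beta chains and binds vitronectin and latent transforming growth factor beta, stood at -0.01, 0.09, -0.06 and 0.02 in the males and at -0.03, 0.07, -0.05 and 0.02 in the females. Its difference was -0.01 ± 0.04 (SE), with an interval from -0.10 to 0.09. Its 2 probe sets gave 0.03 and -0.05. It was the only member with more than 1 probe set. Itga8, a chain of smooth muscle and other mesenchymal cells, had a difference of 0.04 ± 0.06 (SE).

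Itga4 and Itga9 form a pair of related alpha chains that bind the vascular adhesion molecule Vcam1 and other ligands. Their differences were -0.05 ± 0.04 and -0.01 ± 0.03 (SE).

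The 5 leukocyte alpha chains had higher means in females, all by less than 0.05. Itgam, the myeloid chain that also receives complement fragments, stood at -0.06, -0.02, -0.06 and 0.17 in the males and at 0.11, -0.05, 0.10 and 0.02 in the females. Male 4 was the highest heart of all. The difference was 0.04 ± 0.06 (SE) and turned to -0.0248 without the 3 arrays with the highest Myh4. With single hearts left out it ran from 0.02 without male 3 to 0.10 without male 4. Itgal, the lymphocyte chain that binds the adhesion molecules Icam1 and Icam2, stood at -0.12, 0.03, -0.05 and 0.07 in the males and at 0.01, -0.03, 0.03 and -0.01 in the females. Its difference of 0.02 ± 0.04 (SE) turned to -0.01 without male 1, and also without the Myh4-high arrays. Itgax, Itgad and Itgae had differences of 0.02, 0.01 and 0.00.

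Itgb2, the common beta chain of these receptors, stood at -0.15, -0.05, 0.03 and 0.11 in the males and at 0.02, 0.03, -0.02 and -0.08 in the females. The females lay within the range of the males. The difference was 0.00 ± 0.06 (SE, interval -0.12 to 0.13), and it turned to -0.09 without the 3 arrays with the highest Myh4. Macrophage and monocyte markers had higher means in females in 7 of 10 genes, with list means from -0.08 to 0.01 in males and from -0.07 to 0.06 in females. Lymphocyte and natural killer cell markers had higher means in females in 8 of 9 genes, with list means from -0.04 to 0.00 in males and from 0.02 to 0.07 in females. Neutrophil markers had higher means in females in 3 of 5. The part of these cells in the values of the leukocyte chains was not tested.

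Of the 9 beta chain genes, 6 had higher means in males, against 50.4% of all genes. Itgb1, the partner of many alpha chains, stood at 0.09, 0.01, -0.01 and -0.03 in the males and at 0.02, 0.15, -0.07 and -0.06 in the females. The sexes overlapped throughout and female 2 was highest. Its difference was -0.01 ± 0.05 (SE), and the interval from -0.13 to 0.12 bounds it to 1.09-fold either way. The sign turned in 5 of 18 alternative settings.

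Itgb5, which pairs with Itgav on vitronectin, stood at 0.08, 0.09, -0.02 and -0.01 in the males and at 0.01, -0.04, 0.05 and -0.19 in the females. Only female 4 lay outside the male range by a wide margin, and the difference of -0.08 ± 0.06 (SE) was -0.0255 without that heart. Without the Myh4-high arrays it was -0.04. Itgb7, the lymphocyte chain that pairs with Itga4 or Itgae, stood at 0.06, 0.01, -0.01 and 0.06 in the males and at -0.02, -0.08, -0.03 and 0.02 in the females, a difference of -0.05 ± 0.03 (SE). It was -0.03 without female 2 and also -0.03 without the Alb-high arrays. Itgb2l stood at -0.05, 0.03, 0.00 and -0.17 in the males and at 0.08, 0.00, 0.00 and 0.02 in the females. Its difference of 0.07 ± 0.05 (SE) was 0.03 without male 4, the lowest heart. Itgb3, Itgb4, Itgb6 and Itgb8 had differences between -0.02 and 0.02. These encode a platelet and vessel chain, the epithelial laminin receptor chain, and 2 chains that pair with Itgav to release transforming growth factor beta.

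Of the 10 laminin chains, 7 had higher means in males, against 50.4% of all genes. The single laminin chain with an unadjusted p under 0.05 was Lamc1, against 6.96% of all genes. Lamc1, the gamma chain shared by most laminin trimers of the heart, stood at 0.17, 0.10, 0.00 and 0.00 in the males and at -0.22, 0.03, -0.09 and -0.19 in the females. Female 2 lay within the males, and the other 3 females lay below them all. The difference was -0.18 ± 0.06 (SE, 95% interval -0.33 to -0.04, adjusted p = 0.621), or 1.14-fold. Without the 3 arrays with the highest Myh4, which include the 2 highest males and the lowest female for this gene, it was -0.08.

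Lama5, an alpha chain of vessel basement membranes, stood at 0.18, 0.02, 0.18 and -0.07 in the males and at -0.02, -0.09, 0.06 and -0.10 in the females. Males 1 and 3 were the highest hearts and male 4 lay among the females. The difference was -0.12 ± 0.06 (SE, adjusted p = 0.773). Lamb2, a beta chain of mature muscle and vessel basement membranes, stood at 0.13, 0.01, -0.01 and 0.13 in the males and at -0.08, 0.12, -0.05 and -0.11 in the females. Female 2 was again among the males. The difference was -0.10 ± 0.06 (SE, adjusted p = 0.799), and without female 2 it was -0.15.

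Lama2, the alpha chain of muscle laminin whose loss causes a muscular dystrophy, stood at 0.03, 0.07, -0.02 and -0.01 in the males and at 0.01, 0.09, -0.06 and -0.14 in the females. The sexes overlapped, and the difference was -0.04 ± 0.05 (SE). It was -0.11 without the Alb-high arrays, -0.07 without female 2, -0.02 without the Myh4-high arrays, and 0.00 without female 4. Lama4, the endothelial and muscle alpha chain, stood at -0.06, 0.09, 0.01 and 0.27 in the males and at -0.09, 0.20, -0.07 and -0.01 in the females. Male 4 and female 2 were the high hearts. Its difference of -0.07 ± 0.08 (SE) was -0.01 without male 4 and -0.14 without female 2.

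Lamb1, the other widely used beta chain, stood at -0.09, -0.03, 0.03 and 0.06 in the males and at -0.09, 0.09, 0.05 and -0.07 in the females. Its difference was 0.00 ± 0.05 (SE), with a sign that turned in 7 of 18 alternative settings. Lama1, Lama3, Lamb3 and Lamc3, chains better known from embryo, skin and nerve, had differences between -0.02 and 0.02.

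Fat cell and fibroblast markers were set beside the laminin chains. Adipocyte markers had higher means in females in 5 of 5 genes, with list means from -0.27 to 0.04 in males and from -0.04 to 0.53 in females. Of the 5, 3 had a limma unadjusted p under 0.05 with females higher, against 3.63% of all genes. Retn was the only 1 without overlap of the sexes, against 3.74% of all genes. Fibroblast markers had higher means in females in 5 of 6, with list means from -0.08 to 0.11 in males and from -0.11 to 0.09 in females. The 1 higher in males was Col1a1, at -0.44, and the largest difference the other way was that of Dpt, at 0.15. These 2 had a limma unadjusted p under 0.05, against 6.96% of all genes. The part of these cells in the laminin values was not tested.

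The start regions of the laminin genes with the smallest p were read from the RefSeq promoter table of GRCm38.p6, which held 23 of the 36 members; Lamc1 and Itga6 were not among them. The table gives 250 bases before and 50 after the start. Capitals mark GGGCGG or its complement, the GC box, searched on both strands. It stood in 11 of the 23 members (47.8%) and in 38.2% of all 27018 genes listed. The Lama5 window, at chr2:180225810-180226109 on the minus strand, holds 4 matches, and the Lamb2 window, at chr9:108479612-108479911 on the plus strand, holds 0. A match in these letters is a description and says nothing of what binds there.
Lama5: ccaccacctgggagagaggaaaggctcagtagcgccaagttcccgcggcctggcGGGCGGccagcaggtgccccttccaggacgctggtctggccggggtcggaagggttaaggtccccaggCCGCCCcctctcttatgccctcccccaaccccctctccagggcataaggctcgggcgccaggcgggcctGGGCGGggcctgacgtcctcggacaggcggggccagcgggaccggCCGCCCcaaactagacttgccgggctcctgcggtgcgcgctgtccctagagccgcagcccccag
Lamb2: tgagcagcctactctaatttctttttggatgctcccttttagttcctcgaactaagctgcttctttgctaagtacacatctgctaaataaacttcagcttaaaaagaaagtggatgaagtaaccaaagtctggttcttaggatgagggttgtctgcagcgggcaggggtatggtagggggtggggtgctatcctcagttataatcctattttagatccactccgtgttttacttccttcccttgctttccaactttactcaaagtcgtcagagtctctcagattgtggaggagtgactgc

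Chains that form one receptor or one trimer were compared over the 8 hearts in 22 known pairs. The correlation was above 0 in 15 of the 22, with a median Pearson r of 0.12. A single pair, Lamb2 with Lamc1, had an unadjusted p under 0.05, and 0 pairs passed when adjusted over the 22. For Lamb2 and Lamc1, r was 0.79 (exact two-sided permutation p = 0.023, adjusted 0.505) and Spearman's rho was 0.81 (exact permutation p = 0.0218, adjusted 0.479). It was 0.71 after the mean of each sex was removed and 0.78 without the 2 hearts farthest from the median of Lamb2. Male 1 was the highest heart in both genes, and females 1 and 4 were the lowest in both. Lamb2 ranked 160 of 22179 genes by likeness to Lamc1 over the 8 hearts.

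Muscle laminin Lama2 with Lamc1 gave r = 0.62 (rho = 0.64, exact permutation p = 0.0998 and 0.0962, adjusted 0.779 and 0.843). In the main cardiomyocyte pair, Itga7 and Itgb1, r was -0.17 (rho = -0.14, exact permutation p = 0.687 and 0.752, adjusted 0.978 and 1). For the leukocyte pair Itgal and Itgb2, r was 0.61 (rho = 0.36, exact permutation p = 0.106 and 0.389, adjusted 0.779 and 0.918). Without the 2 hearts farthest from the median of Itgal, r was -0.56 over the 6 hearts left, a cut that also narrows the range of Itgal.

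**Figure D3:**
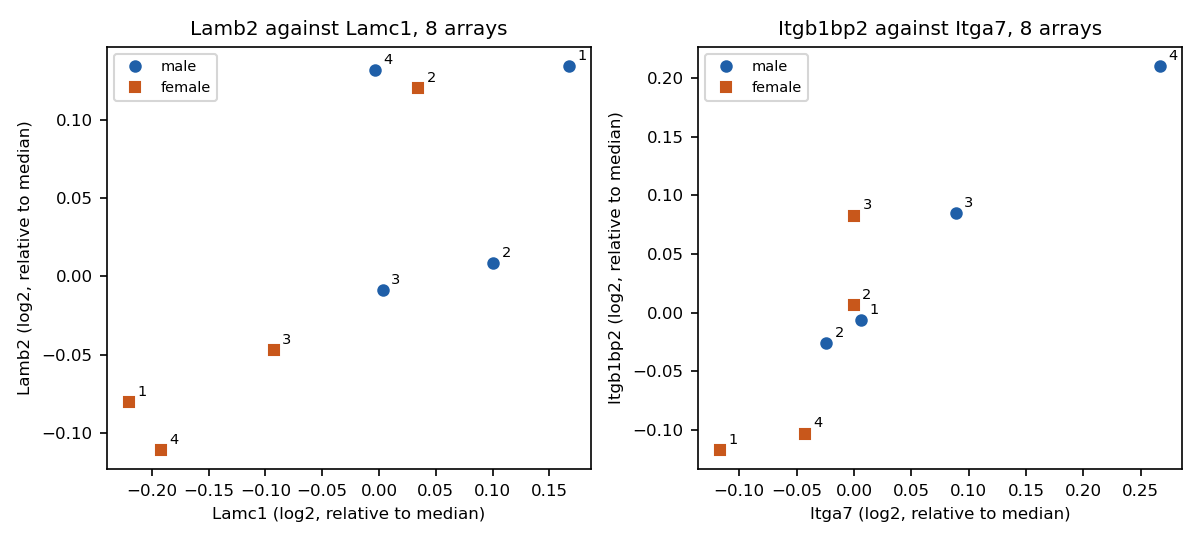
Values of 8 hearts (log2 relative to the median, labelled by replicate number) for Lamb2 against Lamc1 on the left and for Itgb1bp2 against Itga7 on the right, with circles for males and squares for females. Lamb2 and Lamc1 have r = 0.79, and Itgb1bp2, the gene of the muscle protein melusin, and Itga7 have r = 0.92 over the 8 hearts, in a comparison chosen after the values were seen.

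The genes around the members, in 5 lists, likewise held 0 genes past the adjusted threshold. Of all genes, 3.32% had an unadjusted p under 0.05 with the higher mean in males and 3.63% with the higher mean in females. A higher mean in males, whatever the p, held for 50.4% of all genes. Of the 15 measured basement membrane partners, 11 had higher means in males, 4 with an unadjusted p under 0.05 against 1 for females, and the median difference was -0.05. Col4a2, a chain of collagen IV, stood at 0.13, 0.01, 0.15 and 0.04 in the males and at -0.25, -0.01, -0.23 and -0.40 in the females. Each male lay above each female, though male 2 and female 2 were nearly level, and the difference was -0.31 ± 0.07 (SE, adjusted p = 0.476). Nid1, the nidogen gene whose protein binds the Lamc1 chain, stood at 0.17, 0.05, 0.03 and 0.07 in the males and at -0.24, -0.10, -0.01 and -0.10 in the females. The sexes did not overlap, and the difference was -0.20 ± 0.05 (SE, adjusted p = 0.499), or -0.12 without the Myh4-high arrays. Col4a2 and Nid1 were the 2 of the 15 without overlap, against 3.74% of all genes. Agrn, which links laminin to dystroglycan, had a difference of -0.16 ± 0.06 (SE, adjusted p = 0.624).

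Of 17 measured other integrin ligands, 12 had higher means in males, with an unadjusted p under 0.05 in 5 against 1 for females. The fibrillar collagen genes Col1a2 and Col3a1 had differences of -0.30 ± 0.10 and -0.44 ± 0.16 (SE, adjusted p = 0.596 and 0.636), and the matricellular gene Ccn1 one of -0.27 ± 0.10 (SE, adjusted p = 0.633). Without the Myh4-high arrays Col1a2 and Col3a1 were at -0.105 and -0.27. Without female 2, the lowest heart for Ccn1, that gene was at -0.17. The collagen genes were known to lean to males from earlier work on the same arrays and are not independent evidence of a direction. Of 23 measured adhesion adaptors and kinases, 18 had higher means in males, 2 with an unadjusted p under 0.05. Parvb, which encodes a parvin of the integrin-linked kinase complex, had a difference of -0.16 ± 0.05 (SE, adjusted p = 0.566) with no overlap of the sexes. Pxn, also without overlap, went the other way, at 0.04 ± 0.03 (SE). Parvb and Pxn were the 2 of 23 without overlap, against 3.74% of all genes. Tns1, which encodes a tensin that ties beta tails to actin, had -0.12 ± 0.04, and the muscle anchoring gene Nrap had -0.11 ± 0.05 (SE).

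Of 13 measured other laminin receptors of muscle, the dystroglycan complex among them, 5 had higher means in males, and the median difference was 0.01. None of the 13 had an unadjusted p under 0.05. The dystrophin relative Utrn, the sarcoglycan gene Sgca and the galectin gene Lgals1 had differences of -0.07, -0.09 and -0.12. Of 12 genes of transforming growth factor beta and its activation, 7 had higher means in males, with an unadjusted p under 0.05 in 3 against 1 for females. The ligand genes Tgfb3 and Tgfb1 had differences of -0.18 ± 0.05 and -0.18 ± 0.07 (SE), and Lrrc32, whose protein presents the latent ligand to integrins, had 0.18 ± 0.07 (SE). Without the Myh4-high arrays the differences of Tns1, Lgals1 and Tgfb3 were -0.06, -0.04 and -0.10, and that of Sgca was -0.14. Without female 4 that of Lgals1 was -0.06.

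**Figure D4:**
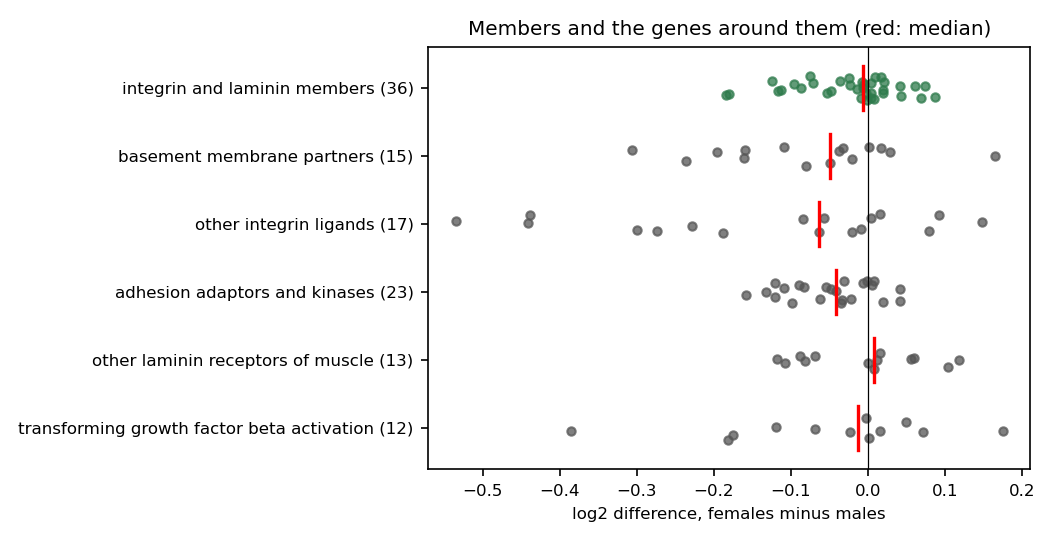
Differences of single genes as females minus males on the log2 scale (x axis), with a line of points for the 36 members and 5 lists of genes around them, with the number measured in brackets and a red line at the median (points are spread vertically for legibility). The members span -0.18 to 0.09, and the widest spread is that of the other integrin ligands, from -0.54 to 0.15.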

How the data were processed

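RNA of 8 hearts was labelled with biotin from 100 ng of total RNA by a standard Affymetrix protocol, per the labels' protocols. The deposited table holds log2 values for 34351 probe sets; the log base was taken as 2, and the authors' software for background correction, normalization and summarization is not given in the sources used here. Each probe set has a median of 0 over the arrays (34351 of 34351, tolerance 1e-06), so brightness filters could not be run.

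Names came from the platform's annotation: 23521 probe sets had 1 symbol, 1814 had several and were left out (among them 1 shared by Itgb4 and 1 by Itga4), and 9016 were unnamed here. Entrez IDs of 23328 matched RefSeq (GRCm38.p6). Probe sets of a gene were averaged to 22180 genes. Females and males were compared with limma 3.58.1 in R 4.3.3 (lmFit, eBayes), with a single term for sex. P-values were adjusted over all genes by Benjamini-Hochberg, with a threshold of 0.05. The code was tested on simulated data. Pairs were tested with exact permutations of the arrays.

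The members, the lists, the pairs and the tests were chosen with earlier results of these data known. Values per array are given for the 10 members with the smallest p, for members whose sexes do not overlap and for a fixed set of cardiac and leukocyte chains; of each list around them the 3 genes with the smallest p are named. Other genes were named after their values were seen. Alternatives were quantile normalization, median centring, single probe sets, trend and robust settings, array weights, a replicate block, protein-coding genes only, an atrial covariate, other thresholds and arrays left out.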

Additional observations from a re-analysis of the deposited data

Results flagged for a closer look

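In a group of 4 hearts, a value was taken as far from the others where its gap to the nearest one filled most of the group's range. This was met by 2 of the 72 combinations of gene and sex, and chance alone gives about 1 in 20. In Itga6, male 1 at 0.01 lay below the other 3 males at 0.06 (gap over range 0.88), a small distance that shows mainly how close those 3 values were. In Lamc3, a gamma chain of nerve and vessel laminins, male 4 at 0.12 lay above the other males, which stood between -0.01 and 0.01 (gap over range 0.864).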

How the results depend on the processing

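None of the 36 members passed the adjusted threshold in any of 18 alternative settings or at an adjusted p of 0.1, and none of the other genes named in the lists passed in those settings. Of 19 members with values per array, 12 kept their direction throughout. Trend and robust settings, the replicate block and protein-coding genes only cannot change a difference. Among members, single probe sets can do so only for Itgav. Members with an unadjusted p under 0.05 numbered 1 in place of 3 without the 3 arrays with the highest Myh4 (7.29% of all genes), and 0 at an unadjusted p of 0.01 (1.73% of all genes). Members whose sexes did not overlap numbered 4 in place of 2 without those arrays and 6 without the 2 Alb-high arrays, where fewer arrays also raised the share of all genes to 22.7% and 14.7%; with single arrays left out they numbered 2 to 4, against 6.28% to 7.77% of all genes. With the replicate block, 4 members had an unadjusted p under 0.05, against 7.64% of all genes. The replicate numbers were not taken to pair the hearts, because the labels do not say what hearts of one number share. The deviations of same-numbered hearts correlated at 0.137, 0.0972, 0.00618 and 0.0906 for numbers 1 to 4. Of 8 arrays, 5 correlated best with their own number. These values cannot decide whether the numbers mark pairs.

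Differences near 0 changed sign. Without the Myh4-high arrays this held for Itgb1 (0.0276), Itgav (0.035), Lamb1 (-0.0231), Itgal (-0.00909), Itgam (-0.0248) and Itgb2 (-0.0908), without the Alb-high arrays for Lamb1 (-0.0019) and Itgb2 (-0.0371), with array weights for Itgb1 (0.0031), and with the atrial covariate for Lamb1 (-0.0055). With single arrays left out, the ranges were -0.0523 to 0.0215 for Itgb1, -0.0302 to 0.0211 for Itgav, -0.0745 to 0.0017 for Lama2, -0.0272 to 0.0315 for Lamb1, -0.0136 to 0.0491 for Itgal and -0.0397 to 0.0443 for Itgb2. Correlations that changed sign without the 2 arrays farthest from the median were Itgal and Itgb2 (-0.56), Itgam and Itgb2 (-0.0364), Itgax and Itgb2 (-0.46), Itga2b and Itgb3 (0.25), Itgav and Itgb3 (0.23), Itga7 and Itgb1 (0.0427), Itga6 and Itgb1 (-0.73), Itga4 and Itgb7 (-0.23) and Itgae and Itgb7 (0.18). Itgax and Itgb2 also did so without the Myh4-high arrays (-0.47), and Itga4 and Itgb7 with sex means removed (-0.26). The cause was not tested.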

Other observations

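Itga7 was also set against all 23 measured adhesion adaptors and kinases, a comparison chosen after the values were seen. The closest was Itgb1bp2, which encodes melusin, a protein of striated muscle that binds the tail of the Itgb1 chain. It stood at -0.01, -0.03, 0.08 and 0.21 in males 1 to 4 and at -0.12, 0.01, 0.08 and -0.10 in females 1 to 4, so that male 4 was highest and female 1 lowest in both genes. Pearson's r was 0.92 (exact two-sided permutation p = 2.23e-04, adjusted over the 23 relations 0.00513) and Spearman's rho was 0.93 (exact permutation p = 0.00223, adjusted 0.0513). With the mean of each sex removed r was 0.90, and without the 2 hearts farthest from the median of Itga7 it was 0.77. Over all genes, 45 correlated with Itga7 at 0.9 or above, and Itgb1bp2 ranked 28 of 22179. The filamin gene Flna, whose protein binds beta tails and actin, was next among the 23 (r = 0.79, rho = 0.76, exact permutation p = 0.0167 and 0.0368, adjusted 0.192 and 0.282), at 0.37 without the same 2 hearts. Flna ranked 372 of 22179 genes by likeness to Itga7.

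Lamc1 was set in the same way against the 15 basement membrane partners, and 0 relations passed the adjustment, with 4 at an unadjusted p under 0.05. For Col4a2 r was 0.86 (rho = 0.71, exact permutation p = 0.00714 and 0.0576, adjusted 0.052 and 0.208), or 0.67 with sex means removed and 0.68 without the 2 farthest hearts. For Col4a1 r was 0.84 (rho = 0.76, exact permutation p = 0.0064 and 0.0368, adjusted 0.052 and 0.208), or 0.73 and 0.65 in turn. Col4a2 ranked 48 and Col4a1 ranked 72 of 22179 genes by likeness to Lamc1.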
